A study of Mus musculus with 3 samples.

Results

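The 9 transcription factor genes described here mark steps of neuron and oligodendrocyte formation, and were followed in single cells of the mouse prefrontal cortex. They were Olig1, Olig2, Neurod1, Neurod2, Neurod6, Neurog2, Eomes, Tbr1 and Helt, 9 of the 20368 genes in the table, taken by name and not by their values. The tissue came from mice of both sexes on postnatal day 6, killed on that day after breathing sevoflurane, a volatile general anaesthetic, at about 3%. The labels give 3 libraries in a single exposed group without unexposed animals. Cell classes are what is compared here, and nothing can be said of the anaesthetic. The genotype, strain and number of animals per library are not given in the sources used here. The p-values therefore measure only how class values vary over these 3 libraries, pooled over all classes in a fit. That variation may be technical.

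Basic helix-loop-helix (bHLH) factors bind DNA as dimers, mostly with broadly expressed E proteins, at short sites called E-boxes. They are held back by Id proteins, which dimerise without binding DNA. In the developing cortex Neurog2 starts the glutamatergic neuron programme, and Neurod1, Neurod2 and Neurod6 act after it. Olig1 and Olig2 direct the oligodendrocyte lineage, and Olig2 is also known from some astrocytes and ventral progenitors. Helt is a bHLH repressor related to the Hes and Hey genes and is best known from GABAergic progenitors of the midbrain. Eomes and Tbr1, which mark intermediate progenitors and young glutamatergic neurons, are T-box factors and not bHLH proteins, so the name bHLH does not cover all 9 genes.

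Cells were assigned to classes by pairs of genes that are not among the 9, both above 0. The classes were oligodendrocyte precursor cells (OPC, Pdgfra and Lhfpl3), committed OPC (Bmp4 and Gpr17), oligodendrocytes (Mag and Mobp), neuroblasts (Dlx1 and Sp9, with or without Insm1), astrocytes (Aqp4 and Gja1), germinal glia (Sfrp1 and Igfbp5) and Cajal-Retzius cells (Reln and Ndnf). Of 13905 cells left after removal of suspected doublets, 2661 were OPC, 343 committed OPC, 20 oligodendrocytes, 3202 astrocytes and 218 germinal glia. A further 1013 were Insm1-positive neuroblasts, 768 Insm1-negative neuroblasts and 75 Cajal-Retzius cells. The 739 cells that met the gates of 2 or more of these classes were left out, and 2362 cells fell in no class. Microglia (P2ry12 and Csf1r, 1618 cells) and endothelial cells (Cldn5 and Flt1, 886 cells) served as classes that should lack the 9 genes.

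The class names were checked against markers that were not used in the gates. All 5 OPC, 5 committed OPC, 6 oligodendrocyte, 5 astrocyte and 6 Cajal-Retzius markers were above 0 in at least 50% of the cells of their class, as were 7 of 8 neuroblast markers. In the Sfrp1 and Igfbp5 cells only 2 of 5 germinal markers reached that share: Vim was above 0 in 71.6% of cells, Hopx in 27.1% and Thbs4 in 7.8%. In the same cells 3 of 5 astrocyte markers reached it. Astrocytes and endothelial cells also had 2 of 5 germinal markers at that share. Summed over the germinal markers, the libraries held 1101.3 to 1540.9 CPM in the Sfrp1 and Igfbp5 cells, against 1549.4 to 1582.2 in astrocytes. By these counts and sums the germinal markers do not set the class apart, and it is called Sfrp1/Igfbp5 glia below.

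The values, called corrected counts here, had been adjusted for depth by the authors. They summed to between 24612481 and 29581504 per library, and the depth before correction is unknown. The labels speak of flash-frozen tissue and Trizol and give no cell isolation step. Levels are CPM (each cell's corrected counts brought to a common total), averaged per class and library. Shares are the percentage of cells above 0. Both are given as mean ± SD over the 3 libraries unless said otherwise. Free RNA puts counts into cells that do not make a transcript, so the microglial and endothelial shares stand beside the others. Haemoglobin and other erythroid RNA was spread over all classes, and 90 barcode sequences occurred in 2 or more libraries.

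Olig1 and Olig2 were the most widely detected of the 9 genes, above 0 in 7458 and 5554 of the 13905 cells. They are neighbours on chromosome 16 of GRCm38 (mm10): Olig2 at chr16:91225457-91228677 and Olig1 at chr16:91269772-91271933, both on the plus strand and 41094 bases apart. Both were highest in OPC, lower in committed OPC, present in most astrocytes for Olig1 and in just over 50% of them for Olig2, and low in Sfrp1/Igfbp5 glia and neuroblasts.

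Olig1 in OPC was 2671.9, 2590.9 and 2593.9 CPM in libraries 1, 2 and 3, and 99.8% ± 0.187 of the cells were above 0. In committed OPC it was 1108.7, 1148.9 and 871.7 CPM, with 98.4% ± 0.995 of cells above 0. In astrocytes it was 723.8, 677.7 and 653.7 CPM, with 89.5% ± 1.5 of cells above 0. The ranges of these 3 classes did not overlap. The 20 oligodendrocytes, at 588.4, 592.7 and 846.2 CPM, overlapped the astrocytes and stayed below the committed OPC. Olig1 then dropped to 132.3, 140.1 and 89.9 CPM in Sfrp1/Igfbp5 glia, where 22.0% ± 3.64 of cells were above 0. That share rested on how the gate was drawn: it was 13.4% when both gate genes had to reach a corrected count of 2 and 38.4% when cells in 2 gates were kept.

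Olig2 in OPC was 850.5, 822.3 and 888.3 CPM, with 96.9% ± 1.18 of cells above 0. In committed OPC it was 569.6, 498.8 and 519.7 CPM, with 92.7% ± 2.75 of cells above 0. In the oligodendrocytes it was 274.0, 297.2 and 263.9 CPM, with 15 of 20 cells above 0 (75.0%, exact 95% interval 50.9 to 91.3). Astrocytes held 183.3, 167.8 and 164.9 CPM, and Sfrp1/Igfbp5 glia 73.1, 48.0 and 66.8 CPM. These 5 classes followed each other without overlap between neighbours. In astrocytes 56.2% ± 1.66 of cells had Olig2 above 0, and in Sfrp1/Igfbp5 glia 17.1% ± 3.58, or 8.91% with the stricter gate and 18.4% with cells in 2 gates kept.

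Outside the glia both genes were above 0 in a minority of cells, and the background classes, microglia and endothelial cells, differed for Olig1. In microglia Olig1 was above 0 in 13.0% ± 5.72 of cells, from 9.3% in library 1 to 19.6% in library 3, and Olig2 in 2.93% ± 0.266. In endothelial cells the shares were 3.73% for Olig1 and 1.91% for Olig2. Median corrected counts per cell were 5120.5 in microglia and 6698 in endothelial cells, against 5263 in OPC and 6289 in astrocytes. The Olig1 shares of Insm1-positive (9.79% ± 1.32) and Insm1-negative neuroblasts (13.8% ± 4.28) lay within or below the microglial range. Both were above the endothelial share, so Olig1 there is at background only as measured against microglia. Olig2 in Insm1-negative neuroblasts, 2.87% ± 1.17, was also at the microglial level. Olig2 in Insm1-positive neuroblasts, 5.02%, 7.32% and 4.82% in the 3 libraries, was above the microglial share in each. In Cajal-Retzius cells Olig2 was in 0 of 75 cells, which allows a share of up to 4%, and Olig1 in 3 cells.

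**Figure D1:**
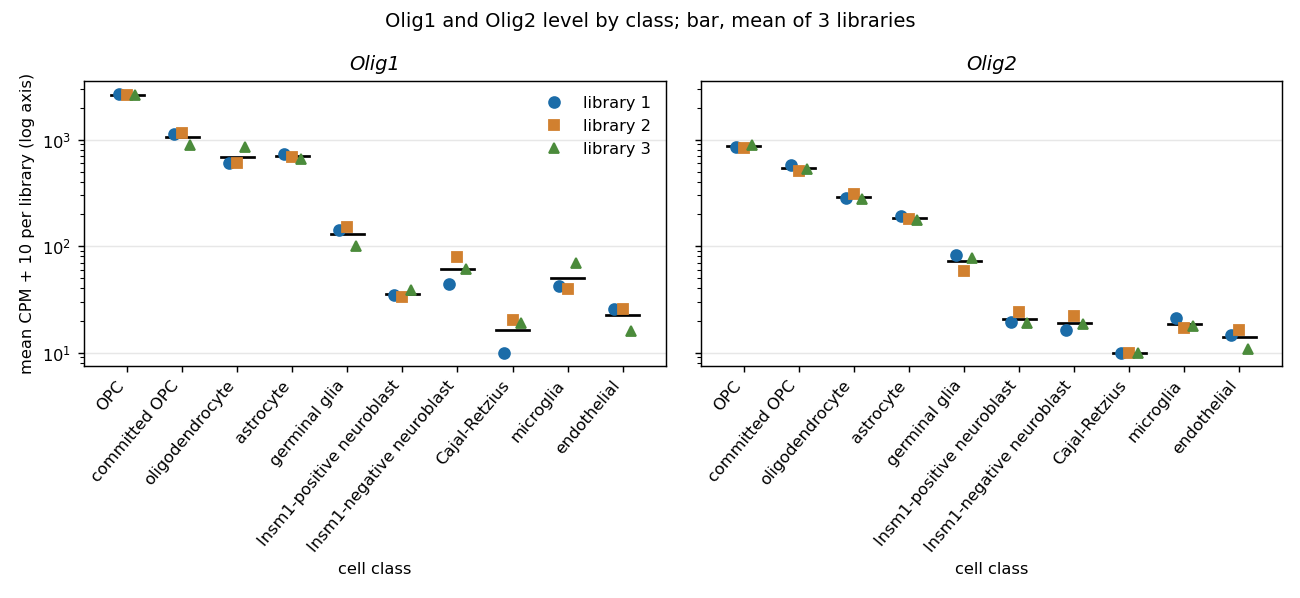
Mean CPM + 10 (log axis) of Olig1 (left) and Olig2 (right) in each cell class (x axis); each point is 1 library, and the bar is the mean of 3 libraries. Both genes fall from OPC through committed OPC to astrocytes and Sfrp1/Igfbp5 (germinal) glia, and Olig1 in microglia reaches 60.1 CPM in library 3.

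Differences between classes were tested on log2(mean CPM + 10) with limma, with the library as a block and Benjamini-Hochberg adjustment over every gene whose mean over the classes reached 10 CPM. The added 10 CPM draws the fold of low genes toward 0. Only Olig1, Olig2 and Tbr1 passed that filter, and Tbr1 passed only through the Cajal-Retzius cells. The other 6 genes are described by their shares, and Helt also by a fit without the filter.

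Committed OPC had less of both Olig genes than OPC. Olig1 fell by 1.33 on the log2 scale (SE 0.24, limma adjusted p = 1.27e-04) and Olig2 fell by 0.68 (SE 0.16, adjusted p = 0.00149), each lower in all 3 libraries. Of all 10183 genes tested, 34.3% passed in this comparison. Both calls were lost when 1 CPM was added in place of 10, with adjusted p = 0.0752 for Olig1 and 0.132 for Olig2. Over the alternatives the lowest adjusted p was 1.37e-08 for Olig1 and 4.01e-07 for Olig2. The 157 cells that met both the OPC and the committed OPC gates, which the classes leave out, lay between, with Olig1 at 2106.7 ± 136.5 CPM and Olig2 at 705.1 ± 42.3 CPM.

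Other regulators around these factors also differed between committed OPC and OPC. Of 8 tested oligodendrocyte factors 4 rose and 1 fell, among them Tcf7l2, a Wnt effector of maturing oligodendrocytes, by 3.03 (SE 0.16, limma adjusted p = 3.62e-13). Myrf, the activator of myelin genes, was higher by a log2 difference of 3.30. Myrf and Zfp488, 2 of the 4, passed the filter only through the committed OPC and had to differ. The median log2 difference of those 8 was 0.90, against -0.05 over all genes tested. Of 4 tested Hes and Hey repressors 3 fell and none rose, Hes1 by 3.07 and Hes5 by 2.53 on the log2 scale, and the list's median was -1.85. Of 7 E protein and Id genes 3 fell and 1 rose, with Id2 lower by a log2 difference of -2.86 and Id4 by -1.63. All 8 genes of dividing cells were lower, Top2a by -3.61.

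OPC had more Olig1 and Olig2 than astrocytes. The log2 difference was 1.92 for Olig1 (SE 0.24, limma adjusted p = 6.21e-07) and 2.25 for Olig2 (SE 0.16, adjusted p = 3.01e-11), higher in all 3 libraries, where 41.8% of all genes tested passed. Both passed under every alternative run. Of 8 oligodendrocyte factors 7 were also higher and none lower, including Sox10, which works with Olig2 in specifying the lineage, at 4.51 (SE 0.24, adjusted p = 2.69e-13) and the zinc finger gene Myt1 at 2.3. The median of those 8 was 1.52, against 0.15 over all genes. In the other direction 4 of 7 E protein and Id genes were lower in OPC and 1 higher, led by Id1 at -3.31 and Id3 at -3.26.

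Among astrocytes the Olig genes were unevenly spread, in subsets that were chosen after their values had been seen and are given without a test. The 2804 astrocytes with Slc7a10, a transporter of mature astrocytes, held 729.1 ± 54.9 CPM of Olig1 and 184.8 ± 16.1 of Olig2. The 398 without it held 383.7 ± 64.0 and 84.1 ± 37.3 CPM. Astrocytes with Gfap, the intermediate filament gene, held 557.0 ± 39.5 CPM of Olig1 and 133.8 ± 15.8 of Olig2, and those without Gfap 757.3 ± 35.7 and 193.7 ± 12.2. The subsets did not overlap over libraries in any of these 4 contrasts. How many of all genes separated in the same way was not counted, so this is not particular to the Olig genes. Within astrocytes 1734 cells had both Olig genes above 0, where 1610.5 would be expected from the shares of each gene taken as independent within a library.

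Sfrp1/Igfbp5 glia had less of both genes than astrocytes. Olig1 fell by 2.43 (SE 0.24, limma adjusted p = 2.73e-08) and Olig2 fell by 1.34 on the log2 scale (SE 0.16, adjusted p = 3.39e-07), each lower in all 3 libraries, with 36.1% of all genes passing. Both passed under every alternative run, but the size rested on the gate. With both gate genes at a corrected count of 2 or more the differences were -4.14 and -2.53, and with cells in 2 gates kept -1.76 and -1.49. The 364 cells that met both gates held 232.4 ± 37.9 CPM of Olig1, between the classes, and 49.0 ± 8.83 CPM of Olig2, overlapping the Sfrp1/Igfbp5 glia. In this comparison Hes6, an antagonist of Hes1, rose by 1.94 (SE 0.17, adjusted p = 1.94e-09). Of 4 Hes and Hey repressors 1 was higher and 2 were lower, among them Hey1 by -1.26. Of 7 E protein and Id genes 2 were higher, Id4 by 1.03 and Tcf3 by 0.68, and 2 lower, Id3 by -2.42 and Id2 by -1.99, with a list median of 0.20. All 8 genes of dividing cells were higher, with a median of 1.54 against 0.06 over all genes. Of 11 genes of the cortical excitatory lineage list 6 were higher and 2 lower. Mfap4, a matrix protein gene, led the higher genes at 3.09, and Nrn1 was among the lower. Slc17a6 and Slc17a7, the glutamate transporters of that list, were at 0 in the Sfrp1/Igfbp5 glia. Mfap4 and Dll1, 2 of the 6, would have missed the filter on low values without the Sfrp1/Igfbp5 glia, with means of 8.59 and 9.81 CPM over the other classes, so the filter favoured their being higher.

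Dividing OPC, with Mki67 and Top2a both above 0, numbered 342, and OPC with neither numbered 1979. Olig1 was 1987.4, 1954.6 and 1957.1 CPM in dividing and 2778.9, 2718.2 and 2730.5 CPM in non-dividing OPC, without overlap. Olig2 was 786.5, 614.5 and 799.7 CPM in dividing and 863.0, 861.0 and 920.7 CPM in non-dividing OPC, also without overlap. The log2 differences, -0.48 for Olig1 (SE 0.23, limma adjusted p = 0.181) and -0.27 for Olig2 (SE 0.16, adjusted p = 0.279), did not pass, where 17.6% of 10249 genes did. They passed when only the compared classes set the spread (adjusted p = 6.05e-09 and 0.00153), with 50 CPM added (0.00793 and 0.0328), and after centring on the median gene (0.0241 and 0.0144). The highest adjusted p over the alternatives was 0.708 for Olig1 and 0.976 for Olig2. Dividing OPC also carried more corrected counts per cell, a median of 6636 against 5161.

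Between neuroblasts with and without Insm1 the Olig1 difference was -0.76 (SE 0.24, limma adjusted p = 0.0438), where 12.2% of all genes passed. The call was lost in 6 of 13 alternatives, among them those without library 1 (adjusted p = 0.0676) and without library 2 (0.489). Both Olig1 shares were within or below the microglial range and above the endothelial share. Olig2 differed by 0.14 (SE 0.16, adjusted p = 0.661) and did not pass. All 8 genes of dividing cells rose in the Insm1-positive cells. Tcf3, an E protein, rose by 0.62 (SE 0.15, adjusted p = 0.00808), and no E protein or Id gene passed after centring on the median gene.

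The ratio of summed Olig1 to Olig2 corrected counts, used only to compare classes and not the level of the 2 genes, was steady over libraries within OPC (3.08 ± 0.128) and astrocytes (4 ± 0.0753), and did not overlap between them. It was 1.96 ± 0.286 in committed OPC, below OPC in every library. Over all cells 5284 had both genes above 0, against 2991.9 expected within libraries, a ratio of 1.77, and 95.1% of Olig2-positive cells also had Olig1. Counted within OPC alone the ratio was 1, and within astrocytes 1.08. It was 2.47 in Sfrp1/Igfbp5 glia, 2.01 in Insm1-positive neuroblasts and 3.28 in cells of no class. The value over all cells mixes classes with much and with little of both genes.

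As a description over 27 class and library means, which share libraries and 9 classes, the genes most like Olig1 by Pearson correlation were Scrg1 (0.984), Olig2 (0.980) and Gpr37l1 (0.962). Those most like Olig2 were Scrg1 (0.995), Olig1 (0.980) and Hacd1 (0.970).

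**Figure D2:**
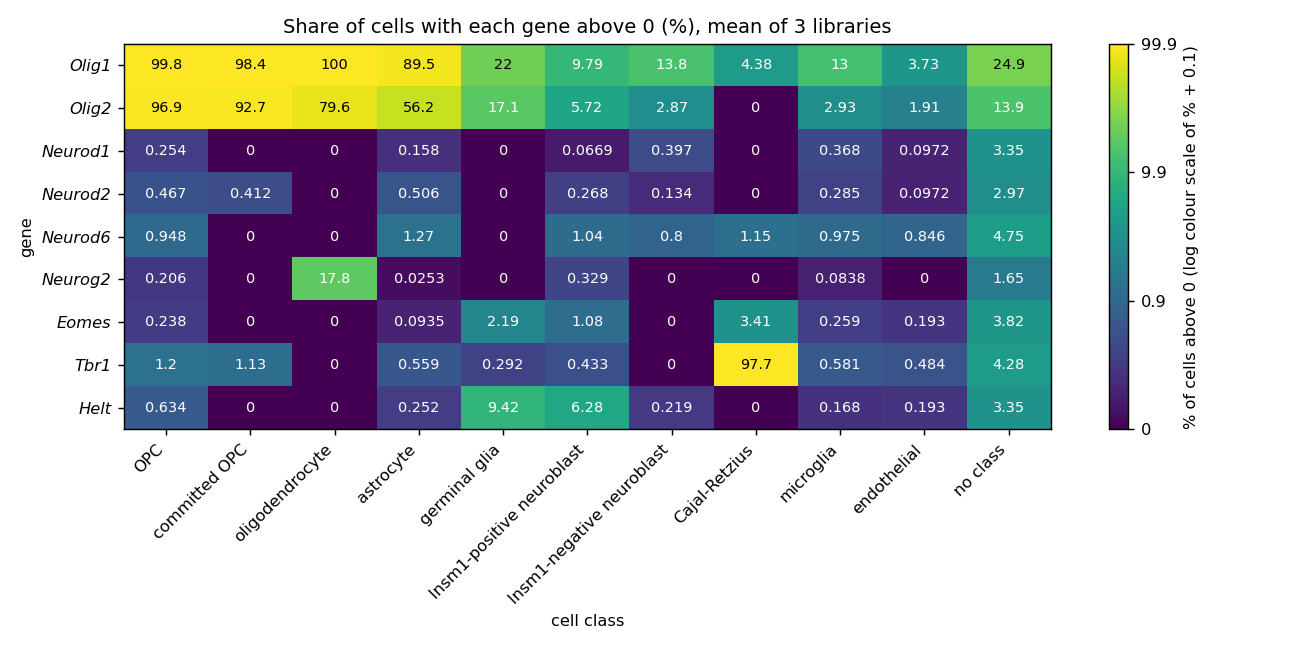
Share of cells above 0 (%, mean of 3 libraries; log colour scale of % + 0.1) for each of the 9 genes (rows) in each class (columns). Olig1 and Olig2 fill the glial columns, Tbr1 stands at 97.7% in Cajal-Retzius cells, and Helt at 9.42% in Sfrp1/Igfbp5 (germinal) glia and 6.28% in Insm1-positive neuroblasts; the 17.8% for Neurog2 in oligodendrocytes rests on 3 of 20 cells.

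The excitatory neuron factors were rare. Neurog2 was above 0 in 54 cells, Neurod1 in 101, Neurod2 in 116, Eomes in 128, Neurod6 in 228 and Tbr1 in 259. For 4 of the 6 most positive cells were in no class: 78.2% of Neurod1, 72.2% of Neurog2, 70.3% of Eomes and 60.3% of Neurod2 cells. For Neurod6 and Tbr1 it was 49.1% and 39.0%, and 73 of the 259 Tbr1 cells were Cajal-Retzius cells. Library 2 held the largest number of positive cells for each of the 6 and library 3 the smallest. Eomes cells numbered 37, 88 and 3 in libraries 1, 2 and 3, Neurod1 cells 25, 67 and 9, and Neurog2 cells 18, 34 and 2.

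Neurog2, the proneural factor that starts the programme, was in at most 0.439% of any class of at least 75 cells in any library. It was above 0 in 3 of 20 oligodendrocytes (15%, exact 95% interval 3.21 to 37.9), in libraries 1 and 2 only, against 1 of 1618 microglia. Eomes, the intermediate progenitor factor, was in 2.63%, 3.95% and 0% of Sfrp1/Igfbp5 glia in libraries 1, 2 and 3 and in 0.803%, 2.44% and 0% of Insm1-positive neuroblasts. In Cajal-Retzius cells it was in 1 of 30, 2 of 29 and 0 of 16 cells (4% in all, exact 95% interval 0.833 to 11.2). The microglial shares were 0.251%, 0.524% and 0%. Eomes was above the microglial share in those 3 classes in libraries 1 and 2, and was not detected in the 28, 228 and 16 cells of them in library 3.

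Neurod6, a factor of postmitotic glutamatergic neurons, was in 0.948% of OPC, 1.27% of astrocytes, 0.975% of microglia and 0.846% of endothelial cells, so its share in the glia was close to the background. Neurod1 and Neurod2 were in at most 0.506% of cells, as a mean over libraries, in each named class. In the 2362 cells of no class the shares were higher, at 3.35% for Neurod1, 2.97% for Neurod2 and 4.75% for Neurod6. Those shares were highest in library 2, where Neurod1 was in 7.01% of such cells, against 2.54% in library 1 and 0.507% in library 3.

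Tbr1, which marks early-born glutamatergic neurons, was the factor of the Cajal-Retzius cells, the Reln-producing neurons of the marginal zone. It was above 0 in 29 of 30, 28 of 29 and 16 of 16 of them, 73 of 75 in all (97.3%, exact 95% interval 90.7 to 99.7). Its level there was 618.1, 539.2 and 651.7 CPM, against at most 3.99 CPM in any library of the other named classes and 0 in Insm1-negative neuroblasts, where 0 of 768 cells allows a share of up to 0.391%. The log2 difference between the Cajal-Retzius cells and the Insm1-negative neuroblasts was 5.93, in a comparison where 63.5% of all genes passed. The filter kept Tbr1 only because of these cells, so it had to differ, and the value is given without a test. Tbr1 was also in 1.20% ± 0.0416 of OPC, against 0.581% ± 0.313 of microglia.

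Cajal-Retzius cells had other bHLH genes and little of the E protein and Id set. Nhlh2 was higher than in Insm1-negative neuroblasts by a log2 difference of 6.68 and Bhlhe22 by 3.93, both bHLH factors of neurons. Of 7 E protein and Id genes 6 were lower and none higher, Tcf4 by -3.59 and Id4 by -2.57, with a list median of -1.81 against 0.18 over all genes. Of 11 tested genes of the cortical excitatory lineage 6 were higher and 4 lower, with Nrn1, a secreted neurite factor, higher by 6.36 and Slc17a6, a vesicular glutamate transporter, by 5.57. Like Tbr1, these 4 genes would have missed the filter without the Cajal-Retzius cells, with means over the other classes of 0.0715 CPM for Nhlh2, 0.301 for Slc17a6, 1.10 for Bhlhe22 and 9.37 for Nrn1, so their values are given without a test. The genes whose class means were most like Tbr1 over 27 means were Slc17a6 (Pearson 0.998), Reln (0.997, a gate gene) and Nhlh2 (0.997), and Tbr1 was above 3.99 CPM only in the 3 Cajal-Retzius means. Olig1 and Olig2 were lower in these cells, by -1.94 and -0.91. The neuroblast shares of both genes were near those of microglia, and for Olig1 above that of endothelial cells.

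Of the 490 cells with at least 1 of the 6 excitatory factors above 0, 323 had only 1 of them. The factors still shared cells more often than expected. In all 15 pairs among Neurog2, Eomes, Neurod1, Neurod2, Neurod6 and Tbr1, more cells held both than expected from the shares within each library, by a ratio of 18.7 to 44.5. In 10 of the 15 this held in all 3 libraries, and the other 5 were the pairs with Neurog2, for which library 3 held no cell with both. Eomes and Neurod1 shared 61 cells, 17, 42 and 2 in the 3 libraries, where 1.37 were expected. Neurog2 and Eomes shared 30 cells, 11, 19 and 0, where 0.736 were expected. Neurod6 and Tbr1 shared 94 cells, 25, 63 and 6, where 5.03 were expected. Without library 2 the ratio for Eomes and Neurod1 was 92.6, for Neurog2 and Eomes 76.1, and for Neurod6 and Tbr1 20.6. Cells within a library share depth and free RNA, so these ratios are a description and carry no test.

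Olig1 and Olig2 went the other way. For their 12 pairs with the 6 excitatory factors the ratio of observed to expected cells was 0.259 to 0.742, lowest for Olig2 with Neurod1, at 11 cells where 42.4 were expected. In library 3, with 9 Neurod1 cells, that pair was at 3 cells where 3.27 were expected, and Olig1 with Eomes (2 cells) and Olig2 with Neurog2 (1 cell) were above expectation there. Helt shared 4 or fewer cells with each of the 6.

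**Figure D3:**
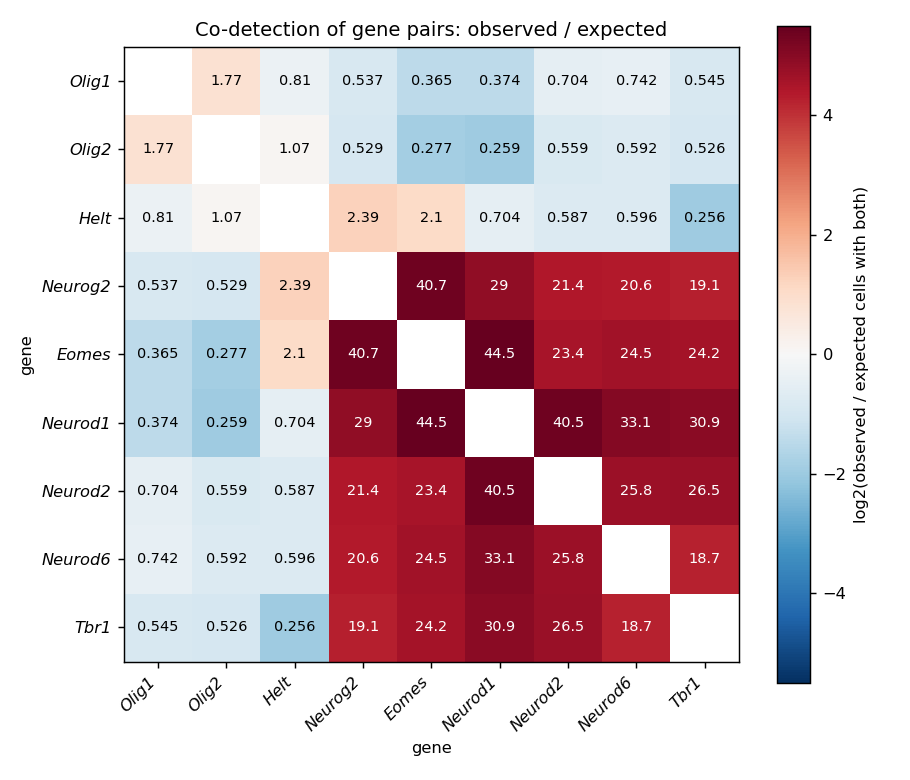
Observed over expected number of cells with both genes above 0, for each of the 36 pairs (numbers, pooled over 3 libraries; colour, log2 of the ratio). The 15 pairs among the 6 excitatory lineage genes form a block at 18.7 to 44.5, and their pairs with Olig1 and Olig2 lie below 1.

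At least 3 of the 6 factors were above 0 in 126 cells, 32, 87 and 7 in libraries 1, 2 and 3, and 3 cells had all 6. In these 126 cells Sstr2, a somatostatin receptor of cortical intermediate progenitors, was in 62.7% against 0.827% of all cells. Slc17a6 was in 54.8% against 1.14% of all cells, and Neurod4, a bHLH factor of the same cascade, in 10.3% against 0.223%. Slc17a7, the vesicular glutamate transporter of mature cortical neurons, was in 0.794%. By library Sstr2 was in 22 of 32, 54 of 87 and 3 of 7 of these cells.

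The factors differed in what else their cells held. Pax6, the radial glia and progenitor factor, was in 51.9% of Neurog2 and 57.8% of Eomes cells, against 43.6% of Neurod1 and 31.0% of Neurod2 cells and 24.4% of all cells. Top2a was in 31.5% of Neurog2 and 28.1% of Eomes cells and in 7.76% of Neurod2 cells, against 18.7% of all cells. Dcx, a microtubule protein of young neurons, was in 64.8% of Neurog2 and 86.1% of Neurod1 cells. The positive cells overlap between the factors, so these shares are not independent. Pax6, Top2a and Dcx were picked after their values had been seen.

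The 250 bases before the start site of Neurod1, Neurod2, Neurod6 and Tbr1 are printed 5′ to 3′ on the gene's strand, from RefSeq promoters on GRCm38.p6. Neurog2 and Eomes were found together with these genes in single cells as well. Of the 9 genes 8 matched that table, all but Olig1. Capitals mark each E-box, the letters CANNTG, which read the same on both strands. The windows are chr2:79456637-79456886 (minus strand), chr11:98329646-98329895 (minus), chr6:55681264-55681513 (minus) and chr2:61804203-61804452 (plus). The Neurod1 and Neurod2 windows partly overlap their GENCODE genes. The Tbr1 window lies inside its GENCODE gene, chr2:61802930-61814114.
Neurod1: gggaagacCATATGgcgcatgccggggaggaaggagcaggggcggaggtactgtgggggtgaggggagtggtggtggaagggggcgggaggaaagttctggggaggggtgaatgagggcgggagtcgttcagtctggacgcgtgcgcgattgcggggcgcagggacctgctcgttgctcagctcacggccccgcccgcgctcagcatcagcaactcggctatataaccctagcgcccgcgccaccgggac
Neurod2: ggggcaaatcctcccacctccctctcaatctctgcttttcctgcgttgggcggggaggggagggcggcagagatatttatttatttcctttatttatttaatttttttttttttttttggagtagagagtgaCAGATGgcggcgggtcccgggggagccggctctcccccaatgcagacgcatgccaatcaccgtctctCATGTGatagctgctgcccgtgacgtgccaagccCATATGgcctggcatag
Neurod6: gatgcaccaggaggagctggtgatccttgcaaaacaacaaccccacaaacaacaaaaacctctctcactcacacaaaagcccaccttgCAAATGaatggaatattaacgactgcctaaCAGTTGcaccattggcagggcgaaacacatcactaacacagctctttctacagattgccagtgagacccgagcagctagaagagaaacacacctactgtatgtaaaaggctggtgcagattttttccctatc
Tbr1: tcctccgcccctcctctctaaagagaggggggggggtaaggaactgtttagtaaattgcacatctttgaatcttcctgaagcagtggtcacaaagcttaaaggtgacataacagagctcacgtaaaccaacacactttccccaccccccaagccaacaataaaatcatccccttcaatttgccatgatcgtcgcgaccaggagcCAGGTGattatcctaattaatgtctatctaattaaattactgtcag
Neurod2 held 3 such matches, 118, 51 and 17 bases before the start, Neurod6 held 2, Neurod1 and Tbr1 held 1 each. The form CAGATG was in the Neurod2 window only, at the match 118 bases upstream. Of 32851 promoter windows of the same length 66.2% held CANNTG and 14.4% held CAGATG, so a match is common and is given as a description. In the windows of Neurog2, Eomes and Olig2 these letters were not found, and those windows are not printed. The printed windows are therefore only ones with a match.

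Helt was above 0 in 205 cells, 118, 54 and 33 in libraries 1, 2 and 3. In Insm1-positive neuroblasts it was in 7.03%, 5.23% and 6.58% of cells, and in Insm1-negative neuroblasts in 0.403%, 0% and 0.254%, without overlap. In Sfrp1/Igfbp5 glia it was in 12.3%, 5.26% and 10.7%, and in astrocytes in 0.307%, 0.228% and 0.221%. Microglia had it in 2 of 1618 cells and endothelial cells in 2 of 886. The Sfrp1/Igfbp5 share rested on how the gate was drawn: it was 1.20% when both gate genes had to reach a corrected count of 2 and 3.43% when cells in 2 gates were kept. In Insm1-positive neuroblasts the stricter gate left 4.52%. Helt was under the filter on low values. In the fit without that filter it was higher in Insm1-positive than in Insm1-negative neuroblasts by 1.36 (limma adjusted p = 4.83e-05) and in Sfrp1/Igfbp5 glia than in astrocytes by 1.62 (adjusted p = 1.19e-06). That fit was not repeated for Helt with the other gates or with a library left out. Its spread is shared by all classes, and Helt was near 0 in most of them, so these p-values may be too low.

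Helt is printed with the window before its start site, chr8:46294672-46294921 on the minus strand of GRCm38.p6, for comparison with the excitatory genes above.
Helt: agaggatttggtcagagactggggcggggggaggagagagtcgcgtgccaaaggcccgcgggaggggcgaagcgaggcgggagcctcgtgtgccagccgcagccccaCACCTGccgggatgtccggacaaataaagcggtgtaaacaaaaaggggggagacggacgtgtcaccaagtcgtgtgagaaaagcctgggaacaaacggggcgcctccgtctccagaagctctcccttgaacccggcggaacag
It held 1 E-box match, CACCTG, 143 bases before the start.

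Within the Insm1-positive neuroblasts Helt and Olig2 were both more often found in dividing cells, a split chosen after the values had been seen and given without a test. Helt was in 12.7%, 6.50% and 14.3% of the 391 cells with Mki67 and Top2a, and in 1.69%, 3.05% and 2.08% of the 512 with neither. Olig2 was in 6.34%, 12.2% and 11.1% of the dividing cells and in 3.8%, 3.82% and 2.08% of the others. Neither gene overlapped between the subsets, but how many of all genes separated in the same way was not counted. Olig1, at 9.57% ± 0.652 and 9.74% ± 1.36, overlapped. Dividing cells had more corrected counts, a median of 6498 against 5046, and more detected genes, a median of 2884 against 1826. Depth before correction is unknown, and thinning of corrected counts does not even it out. After each cell was thinned to 4000 corrected counts the Helt shares were 8.20% ± 4.31 and 1.77% ± 0.286, and the Olig2 shares 6.40% ± 2.52 and 2.21% ± 0.785.

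**Figure D4:**
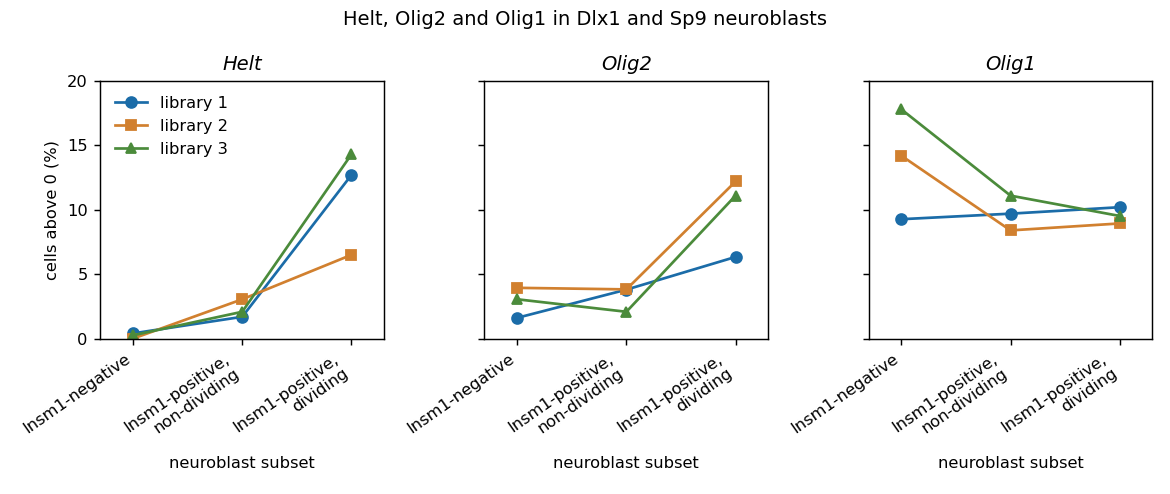
Share of cells above 0 (%) for Helt, Olig2 and Olig1 in Insm1-negative, non-dividing Insm1-positive and dividing Insm1-positive neuroblasts; each line joins the 3 subsets of 1 library. Helt and Olig2 are highest in the dividing cells of every library, and Olig1 is not.

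Helt cells carried genes of neurogenic progenitors. Dll1, a Notch ligand of differentiating progenitors, was in 44.4% of them against 6.67% of all cells, and Mfap4 in 32.7% against 3.91%. By library Dll1 was in 57 of 118, 16 of 54 and 18 of 33. Slc17a6 was in 0 of the 205 cells, which allows a share of up to 1.46%.

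Olig2 and Helt were in the same cell 87 times, where 81.6 were expected over all cells, a ratio of 1.07 that lay between 1.05 and 1.09 in the 3 libraries. The ratio fell below 1 when each cell was thinned to 4000 corrected counts (0.947) and when a corrected count of 2 was required (0.88), so no excess over all cells is read from it. Of 5 groups of cells counted on their own, 3 were above expectation. Insm1-positive neuroblasts held 13 such cells against 3.58 expected, cells of no class 41 against 11.6 and Sfrp1/Igfbp5 glia 8 against 3.89, each above expectation in all 3 libraries. In OPC, where nearly every cell has Olig2, it was 16 against 16.4, and in astrocytes 4 against 4.5. Other pairs also exceeded expectation. Olig1, near the microglial share in Insm1-positive neuroblasts, shared 11 cells with Olig2 there against 5.47 expected, and 7 with Helt against 6.41. In cells of no class Olig1 and Helt shared 45 against 18.9. These groups are mixed, and Helt and Olig2 were both more frequent in dividing Insm1-positive cells. What underlies the excess was not tested.

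The other genes of Helt cells with and without Olig2 are given as a description, with no test. Dlx2, a factor of GABAergic precursors, was in 33.3% of the 87 cells with Olig2 and in 78.8% of the 118 without. By library that was 12 of 49, 8 of 25 and 9 of 13 cells against 56 of 69, 21 of 29 and 16 of 20. Library 3, with 69.2% against 80.0%, stood closer together than the others. Pdgfra, the OPC receptor, was in 40.2% and 9.32%, and by library in 21 of 49, 12 of 25 and 2 of 13 cells against 5 of 69, 3 of 29 and 3 of 20, so that library 3 showed almost no difference. Sox8 was in 70.1% and 31.4%, and by library in 75.5%, 68.0% and 53.8% against 31.9%, 24.1% and 40.0%. Dll3 was in 75.9% and 49.2%, and was higher with Olig2 in each library. Top2a was in 40.2% and 72.0%, and the libraries overlapped, at 38.8%, 28.0% and 69.2% against 72.5%, 69.0% and 75.0%. Dlx2, Pdgfra, Sox8 and Top2a were picked after their values had been seen, and Pdgfra is a gate gene of OPC.

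**Figure D5:**
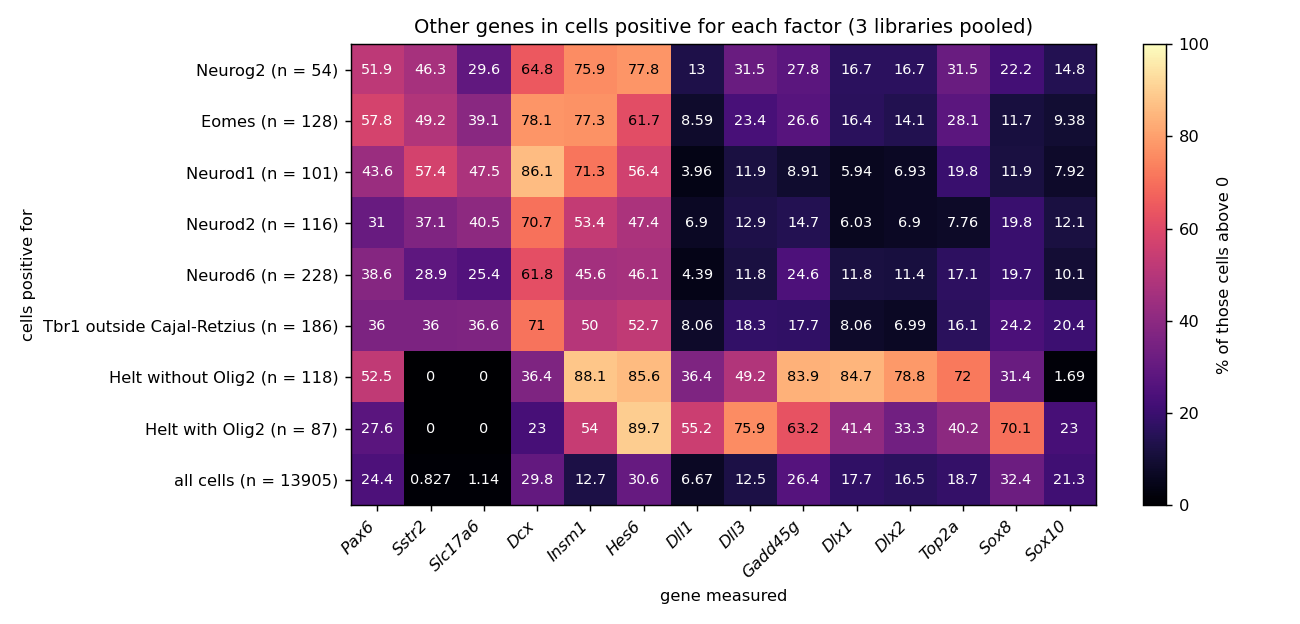
Share (%) of cells above 0 for 14 genes (columns) in the cells positive for each factor (rows; n, number of cells, 3 libraries pooled) and in all cells. Sstr2 and Slc17a6 mark the excitatory factors and are at 0 in both Helt groups, while Dll1 and Dll3 are highest in the Helt rows.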

How the data were processed

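The deposited table holds natural log values, ln(1 + a whole number), for 14192 cells and 20368 genes. The whole numbers had been corrected for depth by the authors, by a method not given in the sources used here. The build mm10 and the tools Seurat, Cell Ranger and CASAVA 1.8 come from the submitters' processing notes. The log was undone and each cell scaled to CPM. Scrublet in scanpy 1.11.5 marked 120, 78 and 89 suspected doublets in libraries 1, 2 and 3 (2.51%, 1.52% and 2.08%), which were removed.

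Class means per library entered limma 3.58.1 (R 4.3.3) with a trend and the library as a block, where every library held 10 or more cells of a class. Microglia and endothelial cells were part of the fit, and a second fit split the OPC by Mki67 and Top2a. The threshold was an adjusted p of 0.05. Comparisons with oligodendrocytes and excitatory cells were not made because of their size. The script was tested on simulated data for committed OPC against OPC. It found 4.55% of changes with an absolute log2 difference of 0.5, 50.0% at 1 and 89.2% at 2. The simulated spread was set and not taken from the data.

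The 9 genes, the lists, the classes and the rule for naming were chosen with earlier results of these data known. From each list up to 2 genes with the largest change were named where all 3 libraries had the same sign, and in positive cells the 3 genes with the largest ratio to all cells. The lists held 58 genes, 55 of them in the table. The genes most like a member are the 3 with the highest correlation. Other genes were picked after their values had been seen. Some genes that the rule would name are not reported here. Gene positions are from GENCODE M21. Exact binomial (Clopper-Pearson) 95% intervals and limits of a 0 (3 counts) cover counting error only.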

Additional observations from a re-analysis of the deposited data

How the results depend on the processing

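Alternatives were another number of CPM added (1 or 50), no filter, leaving out each library, no library block, only the compared classes, centring, unscaled counts, stricter gates, doublets kept and, chosen after seeing the data, cells in 2 gates kept. No called difference of Olig1, Olig2 or Tbr1 changed direction; other genes were not followed one by one. Of 225 tests of Olig1, Olig2 and Tbr1 under an alternative 211 kept their side of the threshold, 8 lost it and 6 gained it. Of 82 alternative shares 26 moved by more than 1 SD. The libraries' numbers form the block: without it, calls in committed OPC against OPC were 3455, against 3495, and the block changed no call of the 3 genes.

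Leaving out 1 library gave 2232 to 3151 called genes in committed OPC against OPC (lowest without library 1), 453 to 1435 in the neuroblasts, against 1242 (453 without library 1, 482 without library 2), and 951 to 1576 in dividing OPC, against 1808 (951 without library 1, 1045 without library 2). The fewer samples leave fewer residual degrees of freedom. With only the compared classes the calls were 7461 in OPC against astrocytes (4255 in the fit of all classes), 2248 in the neuroblasts and 3621 in dividing OPC. With at least 20 cells per class and library there were 1942 in the neuroblasts. With cells in 2 gates kept, Sfrp1/Igfbp5 glia against astrocytes gave 2054, against 3673. The cause of these shifts was not tested. Unscaled or centred values moved the median log2 difference of all genes, from 0.18 to 0.47 or -0.31 in Cajal-Retzius cells, from 0.06 to 0.23 or -0.17 in dividing OPC and from 0.07 to 0.17 or -0.13 in the neuroblasts. The share of calls that were higher went from 61.7% to 76.3% or 34.6%, from 66.0% to 91.7% or 31.9%, and from 74.5% to 89.8% or 34.6%. In committed OPC it went from 39.6% to 56.5% unscaled (median from -0.05 to 0.07), and in OPC against astrocytes from 66.4% to 53.9% centred (median from 0.15 to 0.01). Cajal-Retzius cells with at least 20 per library were not run, for size. Depth before correction is unknown, so a share of 0 bounds cells with a count, not cells expressing a gene.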
